A study of Chenopodium quinoa with 15 samples.

Results

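Leaves of quinoa seedlings treated with 400 mM NaCl for 8 h were compared with leaves of untreated seedlings. Quinoa (Chenopodium quinoa) is a salt-tolerant crop with an allotetraploid genome, and all plants were of the variety NL-6, the variety whose assembly served as reference. The comparison took 6 of the 15 RNA-seq libraries of the series, 3 replicates a group, found by the names of their raw count columns, and tested every gene. In the NaCl-treated group, 14-day-old seedlings on soil were submerged in the salt solution, whereas the untreated group received water. Each replicate pooled all vegetative leaves of 4 seedlings, so the p-values measure the spread between such pools, and fewer cells of a type cannot be told apart from less RNA per cell. The study used these leaves to ask how salt changes the expression of 2 gene families, the CqCrRLK1L receptor kinases and the CqRALF peptides, and the rest of the transcriptome is described here by the gene titles and KEGG entries of the deposited table.

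Salt in the root zone holds back water and brings sodium and chloride into the leaf. The hormone abscisic acid (ABA) carries much of the early response in plants: bound to its PYL receptors it inhibits type 2C protein phosphatases, which frees SnRK2 kinases to activate ABF transcription factors. Leaf cells also accumulate compatible solutes, in the amaranth family above all glycine betaine, made from choline in the chloroplast, and they move sodium and chloride into the vacuole with exchangers and channels that depend on proton pumps. Growth, which needs ribosomes, new cell walls and photosynthesis, is commonly cut back while this happens.

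The libraries held 14392481 to 15092661 counted reads in NaCl-treated leaves and 15544918 to 17019602 in untreated leaves, and 34267 to 35611 genes had a read in a library. Of 58522 genes in the table, 29201 passed the filter on low counts, and a gene could pass it through the group in which it was high alone. With edgeR's quasi-likelihood test and Benjamini-Hochberg adjustment over all tested genes, 6992 genes were higher and 6653 lower in NaCl-treated leaves at an adjusted p under 0.05, which is 46.7% of tested genes (23.9% higher and 22.8% lower). The 2 groups did not overlap in 58.6% of tested genes. A 2-fold change was reached by 2995 of the higher genes (10.3%) and by 3074 of the lower ones (10.5%). The median log2 fold change of all tested genes was 0.04 with TMM scaling. When libraries were scaled by their total counts instead, this median moved to 0.29. The calls then split into 10398 higher and 4426 lower (70.1% higher, against 51.2% with TMM). Every level and change below is therefore on the TMM scale, in CPM (counts scaled to library size), unless FPKM is named. FPKM also corrects for gene length but is scaled by total counts, so FPKM differences between the groups are not on the TMM scale. Leaf markers fixed for the tissue check were the small subunit of Rubisco, the light-harvesting proteins and proteins of photosystems I and II. They were detected in 41 of 44 loci and summed to 79896 to 88001 FPKM in NaCl-treated leaves, against 85305 to 97561 FPKM in untreated leaves. Of 40 tested members 31 were lower and 0 higher. The 10 root marker loci, of which 7 had no read, summed to at most 0.595 FPKM with NaCl and 0.629 FPKM without. The markers of reproductive organs summed to 279.4 to 429.3 FPKM with NaCl and 235.9 to 260.9 FPKM without, with 4 of 15 tested members higher and 2 lower.

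**Figure D1:**
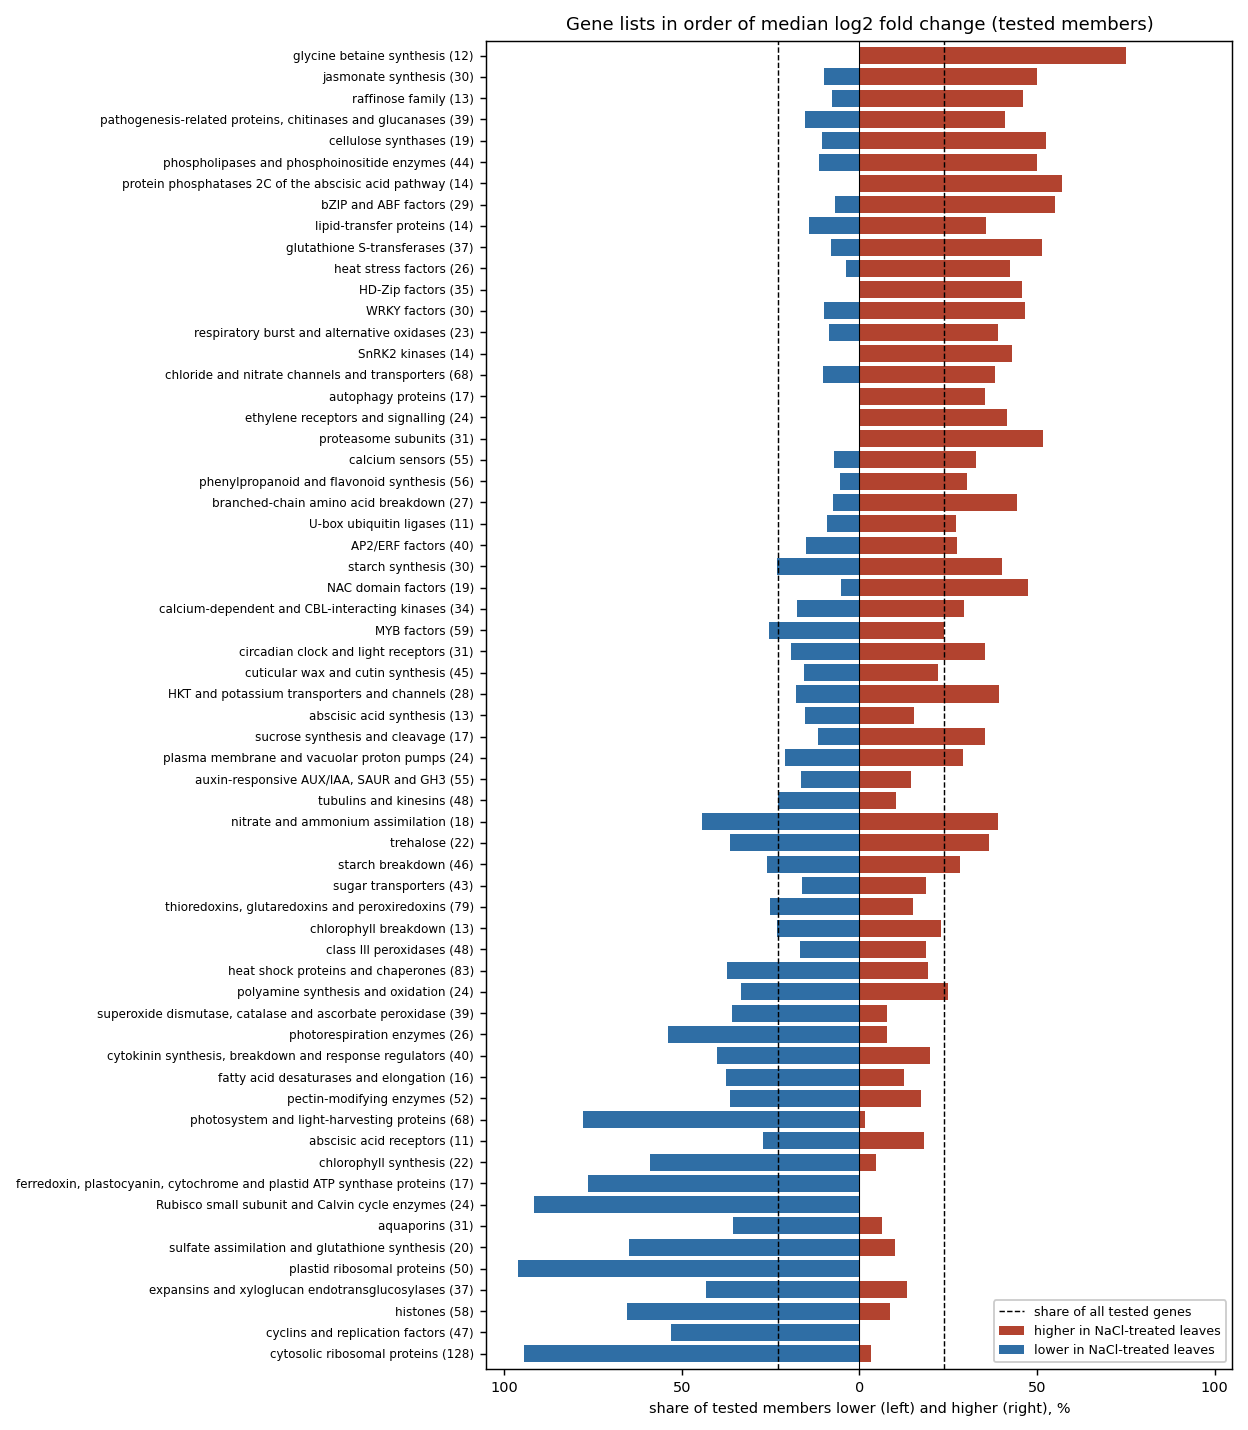
Share of the tested members of each gene list that was higher (red, to the right) or lower (blue, to the left) in NaCl-treated than in untreated leaves at an adjusted p under 0.05, in percent, for lists with at least 10 tested members (the number in brackets), with the list of the highest median log2 fold change at the top and dashed lines at the shares of all tested genes (23.9% higher, 22.8% lower). Glycine betaine synthesis stands at the top with 9 of 12 members higher, and the cytosolic ribosomal proteins at the bottom with 121 of 128 lower.

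Among titled genes with a mean of at least 16 CPM, the 12 largest rises included 2 chitinases and a xyloglucan enzyme, and the 12 largest falls included 4 glycosidases. The rises had log2 fold changes of 4.21 to 9.73 and the falls of -2.86 to -5.45; a title names the best match in another species, and the enzyme may act on another substrate in quinoa. The acidic endochitinase SE2 (CqNL-6_038587), a chitin-cleaving defence enzyme, had 50.9, 14.6 and 31.6 CPM in NaCl-treated leaves, against 0.071, 0.32 and 0.0643 CPM in untreated leaves. A second chitinase, SP2 (CqNL-6_036610), had 94.7, 25.3 and 30.9 CPM with NaCl, against 0.284, 0.192 and 0.707 CPM without. In both genes the NaCl replicates spread widely, with replicate 1 highest, yet no NaCl library came near the untreated ones. XTH32 (CqNL-6_047653, chromosome 11, 63752917 to 63758199), which cuts and rejoins the xyloglucan of the cell wall, had 52.9, 63.4 and 49.3 CPM in NaCl-treated leaves, against 1.63, 1.22 and 0.772 CPM in untreated leaves (log2 fold change 5.52 ± 0.23, adjusted p = 1.5e-06). Nucleoredoxin 2 (CqNL-6_039531, chromosome 16, 4630707 to 4637790), a thioredoxin-like disulfide reductase, had 72.8, 95.4 and 54.2 CPM with NaCl, against 2.55, 2.69 and 3.34 CPM without (log2 fold change 4.69 ± 0.24, adjusted p = 5.39e-06). These rises were close to each other in the 3 NaCl replicates. The others among the 12 were a B3-domain factor titled REM16, a secologanin synthase-like cytochrome P450, an osmotin-like NP24 protein, a phosphoethanolamine N-methyltransferase, a cysteine-rich secretory protein, a glucan-protein synthase, a protein of unknown function and a reticuline 7-O-methyltransferase-like gene (CqNL-6_015603). The last had 107, 2.66 and 23.4 CPM with NaCl but only 2 reads in the 3 untreated libraries together, and its call was lost when NaCl replicate 3 or any 1 untreated replicate was left out. The same held for the NP24 protein (CqNL-6_012423), with 66.7, 5.26 and 23.4 CPM with NaCl, against 1.14, 1.54 and 0.643 CPM without (adjusted p = 0.0244).

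On the side of the falls, several of the glycosidases act on cell wall polysaccharides. The probable beta-D-xylosidase 2 (CqNL-6_006242, chromosome 2, 1202338 to 1209633) had 5.04, 7.07 and 8.59 CPM in NaCl-treated leaves, against 137, 175 and 144 CPM in untreated leaves (log2 fold change -4.46 ± 0.20, adjusted p = 2.43e-06). A putative beta-galactosidase (CqNL-6_019352) had 5.04, 4.77 and 6.29 CPM with NaCl, against 64.6, 55.7 and 57.5 CPM without (log2 fold change -3.46 ± 0.15, adjusted p = 1.93e-06). The treated and untreated levels of these 2 genes lay more than 5-fold apart in every pair of libraries. An auxin-induced beta-glucosidase (CqNL-6_026234) had 0.3, 0.363 and 2.36 CPM with NaCl, against 35.8, 40.9 and 52.7 CPM without, and a polygalacturonase, a pectin-cleaving enzyme (CqNL-6_012961), had 1.92, 2.24 and 6.1 CPM with NaCl, against 44.5, 17.6 and 25.3 CPM without. Snakin-2 (CqNL-6_018419), a small antimicrobial peptide of the gibberellin-stimulated GASA family, had 10.3, 28.1 and 10.6 CPM with NaCl, against 153, 158 and 137 CPM without, with NaCl replicate 2 above the other treated replicates. The chaperone titled HSP90-1 (CqNL-6_037236) had 44.4, 59.2 and 131 CPM with NaCl, against 754, 539 and 495 CPM without (log2 fold change -2.93 ± 0.46, adjusted p = 0.00358). The ribosomal protein Sa-2 (CqNL-6_027943) had 8.99, 9.79 and 13.4 CPM with NaCl, against 104, 68.3 and 60.4 CPM without. The remaining titles in this group were a basic 7S globulin, a 7-deoxyloganetin glucosyltransferase, a 21 kDa protein, a CDGSH iron-sulfur protein and an ascorbate oxidase homolog.

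Genes that act in ABA signalling below the receptor were higher in NaCl-treated leaves. The receptors (18.2% higher, 27.3% lower) lay near the shares of all tested genes (23.9% higher, 22.8% lower). The synthesis genes (15.4% higher, 15.4% lower) lay below both shares. Of the protein phosphatases 2C of the pathway, which switch the signal off when the hormone is absent, 8 of 14 tested members rose and 0 fell, with a median log2 fold change of 0.56 over the list. Of the SnRK2 kinases, which carry the signal on, 6 of 14 tested members rose and 0 fell (median 0.39). Of the bZIP and ABF factors, a wider list that includes their ABF targets, 16 of 29 tested members rose and 2 fell (median 0.55). Among the 11 tested ABF and ABI5-like members 8 rose and 0 fell (median 1.16). The phosphatase CqNL-6_033733 (chromosome 8, 2273184 to 2279471) had 119, 129 and 78.2 CPM in NaCl-treated leaves, against 7.52, 12.5 and 13.1 CPM in untreated leaves (log2 fold change 3.29 ± 0.27, adjusted p = 6.53e-05). A second phosphatase, CqNL-6_031429, had 171, 141 and 92.1 CPM with NaCl, against 16.5, 19.1 and 20.3 CPM without (log2 fold change 2.85 ± 0.22, adjusted p = 3.75e-05). Both were at least 4-fold higher in every NaCl library than in any untreated one, and NaCl replicate 3 was lowest in both. The kinase titled SAPK2 (CqNL-6_010252) had 18, 17.7 and 14.4 CPM with NaCl, against 3.69, 5.06 and 4.63 CPM without (log2 fold change 1.90 ± 0.18, adjusted p = 4.38e-05). The ABI5-like factor CqNL-6_003735 (chromosome 11, 6987907 to 6991033) had 79.6, 80.3 and 48.7 CPM with NaCl, against 19.1, 21.1 and 19.1 CPM without (log2 fold change 1.82 ± 0.19, adjusted p = 8.51e-05). Its relative CqNL-6_013660 had 43.5, 47.9 and 31.5 CPM with NaCl, against 15.6, 15 and 14.2 CPM without. Again the treated and untreated ranges were far apart and NaCl replicate 3 was lowest of the treated libraries.

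Among the PYL receptors 2 of 11 tested members rose and 3 fell (median -0.52). The receptor CqNL-6_024855 had 9.83, 6.83 and 8.72 CPM in NaCl-treated leaves, against 45.4, 83 and 75.6 CPM in untreated leaves (log2 fold change -3.01 ± 0.25, adjusted p = 5.71e-05), and CqNL-6_043072 fell as well, at a lower level. By contrast CqNL-6_036909 had 16.4, 16.6 and 16.6 CPM with NaCl, against 12.3, 10.1 and 11.7 CPM without, a small rise (log2 fold change 0.54 ± 0.14). In ABA synthesis 2 of 13 tested members rose and 2 fell (median 0.11), and of the 4 tested 8'-hydroxylases, which inactivate the hormone, 0 were called. None of the 4 tested loci of NCED, the dioxygenase that limits ABA synthesis, was called either. Zeaxanthin epoxidase, an early plastid step, divided by copy: CqNL-6_011528 had 263, 263 and 273 CPM with NaCl, against 159.7, 180.4 and 192 CPM without, whereas CqNL-6_019001 had 88, 68.3 and 98.1 CPM with NaCl, against 154, 160.1 and 174 CPM without. Copies with the same title thus moved in opposite directions. Both tested dehydrins, hydrophilic proteins that protect membranes and proteins in drying cells, were higher. Dehydrin CqNL-6_039449 (chromosome 16, 3321083 to 3322144) had 162, 84.6 and 106 CPM in NaCl-treated leaves, against 6.81, 8.2 and 9.26 CPM in untreated leaves (log2 fold change 3.86 ± 0.26, adjusted p = 3.19e-05). The other, CqNL-6_026803, had 185, 58.2 and 107 CPM with NaCl, against 30.7, 40.6 and 42.1 CPM without, and its call (adjusted p = 0.0246) was lost without NaCl replicate 3 and without each untreated replicate.

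Transcription factors of the HD-Zip family, many of which respond to water deficit, shared this direction: 16 of 35 tested members rose and 0 fell (median 0.49). The ATHB-12-like gene CqNL-6_036785, named after an ABA-induced factor of Arabidopsis, had 53.8, 32.3 and 26.6 CPM in NaCl-treated leaves, against 2.77, 6.73 and 4.57 CPM in untreated leaves (log2 fold change 2.99 ± 0.39, adjusted p = 0.000978), and its relative CqNL-6_025846 had 41.5, 22.8 and 19 CPM with NaCl, against 3.41, 4.48 and 4.63 CPM without. In both of them NaCl replicate 1 was highest and the lowest NaCl library was still more than 3-fold above the highest untreated one. Of the NAC factors 9 of 19 tested members rose and 1 fell, among them NAC72 (CqNL-6_022517, log2 fold change 1.99 ± 0.31), which in Arabidopsis is induced by dehydration. Of the WRKY factors 14 of 30 tested members rose and 3 fell, and of the heat stress factors 11 of 26 tested members rose and 1 fell. The AP2/ERF factors, with 11 of 40 tested members higher and 6 lower, lay closer to the shares of all tested genes (23.9% higher, 22.8% lower). The heat stress factor CqNL-6_009303 had 26.6, 36.6 and 42.9 CPM with NaCl, against 7.45, 6.41 and 6.11 CPM without (log2 fold change 2.41 ± 0.19, adjusted p = 2.28e-05).

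Glycine betaine synthesis had the highest median of all lists with at least 10 tested members, 1.54, with 9 of 12 tested members higher and 0 lower. Betaine is made in the chloroplast by choline monooxygenase and betaine aldehyde dehydrogenase, and phosphoethanolamine N-methyltransferase supplies the choline. All 4 tested N-methyltransferase loci rose, as did 3 of 4 monooxygenase and 2 of 4 dehydrogenase loci. Choline monooxygenase CqNL-6_054275 (chromosome 1, 27019198 to 27025388) had 1327, 1391 and 1032 CPM in NaCl-treated leaves, against 73.2, 63 and 66.4 CPM in untreated leaves, 18.5 times the untreated level (log2 fold change 4.21 ± 0.16, adjusted p = 1.04e-06). The N-methyltransferase CqNL-6_056988 (chromosome 2, 31416825 to 31425352) had 2292, 2729 and 1794 CPM with NaCl, against 163, 157 and 167.5 CPM without (log2 fold change 3.80 ± 0.17, adjusted p = 2.2e-06). A second locus, CqNL-6_017786 (chromosome 5, 41193256 to 41201843), had 2385, 3099 and 1474 CPM with NaCl, against 118, 87.2 and 96.4 CPM without (log2 fold change 4.53 ± 0.30, adjusted p = 3.45e-05). Per unit of length, which allows a comparison between genes, CqNL-6_017786 was the most abundant transcript of the list in NaCl-treated leaves with a mean of 1069 FPKM, against 38.7 FPKM in untreated leaves, and CqNL-6_054275 averaged 756 FPKM against 34.3 FPKM. NaCl replicate 2 was highest in all 3 genes and replicate 3 lowest.

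**Figure D2:**
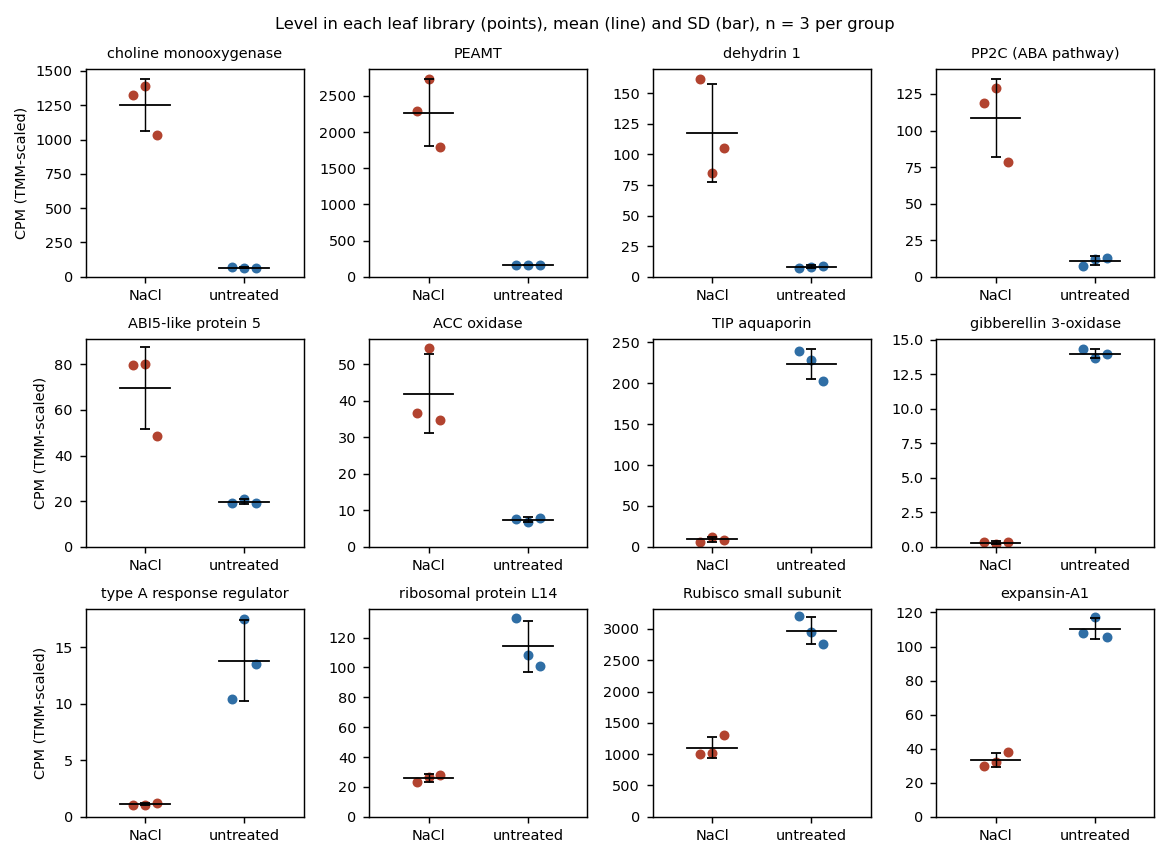
Level of 12 genes in CPM (TMM scale, linear axis) in each NaCl-treated (red, left) and untreated (blue, right) leaf library. Lines mark the group means and bars the standard deviations. The groups do not overlap in any panel; choline monooxygenase lies above 1000 CPM in the 3 NaCl libraries and near 70 CPM in the 3 untreated ones, and the tonoplast aquaporin lies near 10 CPM with NaCl and above 200 CPM without.

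The lists of other compatible solutes had smaller medians than glycine betaine synthesis. In proline synthesis 3 of 4 tested members rose and 1 fell. Pyrroline-5-carboxylate synthetase (CqNL-6_010747), the entry enzyme, had 124, 230.3 and 119 CPM in NaCl-treated leaves, against 98, 78.3 and 79.7 CPM in untreated leaves (log2 fold change 0.89 ± 0.26, adjusted p = 0.0241), a call that was lost when untreated replicate 2 or 3 was left out. Proline dehydrogenase (CqNL-6_009915), which starts its breakdown, had 16, 12 and 26.1 CPM with NaCl, against 25, 45.9 and 52 CPM without, and this call (adjusted p = 0.04) was lost with total-count scaling and without either NaCl replicate 1 or 2 or untreated replicate 2 or 3. In the raffinose family 6 of 13 tested members rose and 1 fell (median 0.71). Raffinose synthase CqNL-6_015790 had 27.4, 30.2 and 25.5 CPM with NaCl, against 7.59, 7.49 and 8.17 CPM without (log2 fold change 1.84 ± 0.14, adjusted p = 1.82e-05), with nearly the same level in the replicates of each group. Galactinol synthase 1 (CqNL-6_014878), which makes the galactosyl donor, had 4.92, 4.23 and 5.9 CPM with NaCl, against 0.497, 0.577 and 0.965 CPM without. Both tested loci of inositol-3-phosphate synthase, the first step to inositol and its methylated forms, were higher, CqNL-6_011396 with 92.4, 85.8 and 73.1 CPM with NaCl, against 38.7, 35.6 and 34.9 CPM without (log2 fold change 1.20 ± 0.13) and CqNL-6_008880 with 22.1, 24.1 and 22 CPM with NaCl, against 7.17, 6.53 and 8.04 CPM without. The trehalose list, made of trehalose phosphate synthases and phosphatases, had 8 higher and 8 lower of 22 tested members and a median of -0.05, which turned to 0.20 with total-count scaling.

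Ion transporters were higher more often than lower, and aquaporins lower. Only 7 of 37 loci of sodium/proton exchangers passed the count filter, of which 4 rose and 0 fell (median 0.51). These antiporters move sodium into vacuoles or endosomes or out of the cell. The exchanger titled 6-like (CqNL-6_029012) had 33.5, 41.1 and 32.4 CPM in NaCl-treated leaves, against 8.8, 9.16 and 10.5 CPM in untreated leaves (log2 fold change 1.91 ± 0.15, adjusted p = 2.03e-05), and CqNL-6_031603 had 26.5, 27.9 and 19.6 CPM with NaCl, against 9.44, 8.84 and 8.68 CPM without (log2 fold change 1.46 ± 0.16, adjusted p = 9.62e-05). Neither gene had an NaCl library below 2 times the highest untreated one. Of HKT proteins and potassium transporters and channels 11 of 28 tested members rose and 5 fell (median 0.11). The outward channel SKOR (CqNL-6_032911), which in Arabidopsis loads potassium into the xylem, had 10.1, 9.91 and 8.78 CPM with NaCl, against 2.13, 2.24 and 2.44 CPM without, and the KUP transporters CqNL-6_012899 and CqNL-6_002756 rose by 1.82 and 1.24 on the log2 scale while CqNL-6_042054 fell by 1.22. Of chloride and nitrate channels and transporters 26 of 68 tested members rose and 7 fell (median 0.36), including 20 of 49 tested NPF and NRT1 proteins (6 lower) and 5 of 14 CLC channels (1 lower). The NPF transporter CqNL-6_035743 had 145, 154 and 144 CPM with NaCl, against 72.9, 59.3 and 71.7 CPM without, and CqNL-6_016066 had 25, 22.4 and 31.4 CPM with NaCl, against 5.25, 4.48 and 5.79 CPM without, at least 3-fold above the untreated libraries in each treated one. NPF1.2 (CqNL-6_007875) was among those that fell (log2 fold change -1.02 ± 0.14).

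Proton pumps, which energise this transport, had no common direction: 7 of 24 tested members rose and 5 fell with TMM over all 6 libraries, and the balance turned to 3 higher and 6 lower without NaCl replicate 2, to 2 and 5 without untreated replicate 1, and likewise without NaCl replicate 3 or untreated replicate 2 or 3. The proton-pumping pyrophosphatase CqNL-6_046956, the member with the smallest p among those that fell, had 276, 368 and 350.3 CPM in NaCl-treated leaves, against 628, 553 and 543 CPM in untreated leaves (log2 fold change -0.79 ± 0.14, adjusted p = 0.00122). Aquaporins carry water through membranes, PIPs at the cell surface and TIPs at the vacuole. Of 31 tested members 11 fell and 2 rose (median -0.72), with 4 of 8 TIPs lower and 0 higher, and 4 of 9 PIPs lower and 2 higher. The TIP CqNL-6_035212 (chromosome 17, 12440060 to 12441435) had 6.29, 12.4 and 8.85 CPM in NaCl-treated leaves, against 239, 228 and 203 CPM in untreated leaves (log2 fold change -4.60 ± 0.24, adjusted p = 6.54e-06), and a second TIP, CqNL-6_004068, had 18.4, 34.9 and 26.5 CPM with NaCl, against 336, 383 and 325 CPM without (log2 fold change -3.71 ± 0.23, adjusted p = 1.34e-05). These were the steepest falls of the list, and NaCl replicate 2 was highest of the treated libraries in both. The PIPs CqNL-6_001211 and CqNL-6_024977 had 59.5, 56.4 and 59.6 and 45.6, 39.5 and 46.3 CPM with NaCl, against 155, 137 and 145 and 125, 107 and 108 CPM without. In the other direction the PIP CqNL-6_049019 had 46.2, 38.6 and 30.5 CPM with NaCl, against 16.8, 22.7 and 21.1 CPM without (log2 fold change 0.93 ± 0.17).

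Ethylene genes and jasmonate synthesis genes rose more often than they fell, whereas cytokinin response genes were lower. Ethylene is made by ACC synthase and ACC oxidase: 5 of 7 tested members rose and 1 fell (median 0.94), and of the receptors and signalling proteins 10 of 24 tested members rose and 0 fell (median 0.34). The ACC oxidase CqNL-6_055529 (chromosome 6, 8051911 to 8066294) had 36.8, 54.5 and 34.7 CPM in NaCl-treated leaves, against 7.66, 6.79 and 7.91 CPM in untreated leaves (log2 fold change 2.49 ± 0.19, adjusted p = 2.03e-05). A more abundant ACC oxidase, CqNL-6_029138, had 638, 447 and 583 CPM with NaCl, against 131, 217 and 217 CPM without (log2 fold change 1.56 ± 0.22, adjusted p = 0.000496). The receptor CqNL-6_046569 had 24.5, 19.8 and 16.7 CPM with NaCl, against 4.12, 5.89 and 5.27 CPM without, and EBF2 (CqNL-6_044779), an F-box protein that degrades the ethylene factor EIN3 and is itself an ethylene target, had 12.9, 8.04 and 7.14 CPM with NaCl, against 1.56, 2.69 and 1.93 CPM without. Both of these differed by more than 2-fold between any NaCl and any untreated library. In jasmonate synthesis 15 of 30 tested members rose and 3 fell (median 0.71). The summed level of this list was 903 FPKM with NaCl and 908 FPKM without. The lipoxygenase CqNL-6_044382 and the oxophytodienoate reductase CqNL-6_011291, an early and a late enzyme of the path, had 26.7, 19.2 and 21.2 and 14.1, 17.8 and 8.26 CPM with NaCl, against 4.26, 4.29 and 2.83 and 2.13, 2.31 and 2.19 CPM without. Another lipoxygenase, CqNL-6_044386, had the smallest p among the members that fell and had 92.4, 45.9 and 178 CPM with NaCl, against 414, 558 and 539 CPM without (log2 fold change -2.26 ± 0.51, adjusted p = 0.0151), a call that was lost without NaCl replicate 1. Of the JAZ repressors, jasmonate targets, 1 of 6 tested members rose and 3 fell.

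Type A response regulators are fast targets of cytokinin that dampen its signal. All 9 tested members named so in the cytokinin list fell, with a median log2 fold change of -2.33. The regulator CqNL-6_027024 (chromosome 18, 54390562 to 54392014) had 1.08, 1.03 and 1.25 CPM in NaCl-treated leaves, against 10.4, 17.6 and 13.5 CPM in untreated leaves (log2 fold change -3.62 ± 0.25, adjusted p = 1.43e-05), and CqNL-6_015978 had 4.74, 4.53 and 7.34 CPM with NaCl, against 27, 29 and 27.5 CPM without (log2 fold change -2.33 ± 0.19, adjusted p = 2.47e-05). For another regulator, CqNL-6_038903, the values were 3.84, 2.18 and 2.49 CPM with NaCl, against 18.7, 21 and 16.2 CPM without. The highest NaCl library thus stayed below the lowest untreated library in each of these genes. LOG enzymes, which release active cytokinin, were mixed with 3 of 10 higher and 2 lower; CqNL-6_049242 had 79.9, 87.4 and 72.7 CPM with NaCl, against 21.5, 23.7 and 24.6 CPM without (log2 fold change 1.78 ± 0.12, adjusted p = 1.43e-05). Over the whole cytokinin list 8 of 40 tested members rose and 16 fell (median -0.37).

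Gibberellin genes were few but moved strongly. The gibberellin 3-oxidase CqNL-6_007777 (chromosome 3, 11063118 to 11064687), which makes the active hormone, had 0.36, 0.181 and 0.328 CPM in NaCl-treated leaves, against 14.3, 13.7 and 14 CPM in untreated leaves (log2 fold change -5.56 ± 0.25, adjusted p = 2.2e-06). The receptor CqNL-6_023922 had 46.3, 28.7 and 30.3 CPM with NaCl, against 6.88, 9.03 and 6.56 CPM without (log2 fold change 2.23 ± 0.22, adjusted p = 6.14e-05), and the inactivating 2-oxidase CqNL-6_025412 had 1.26, 1.99 and 0.786 CPM with NaCl, against 0.071, 0.128 and 0 CPM without, or 3 reads in the 3 untreated libraries together. Of the 7 tested members of the list, 3 rose and 2 fell, with a median of -0.23 that turned to 0.02 with total-count scaling. In the brassinosteroid list 4 of 9 tested members rose and 1 fell; CYP90A1 (CqNL-6_010848), a synthesis enzyme, had 15.2, 9.79 and 30.6 CPM with NaCl, against 114, 119 and 126 CPM without (log2 fold change -2.69 ± 0.41, adjusted p = 0.00261). In this gene NaCl replicate 3 was more than 2-fold above the other 2 treated replicates.

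Calcium sensors and phospholipid signalling genes rose more often than they fell. The joint list of calcium-regulated kinases lay closer to the shares of all tested genes, but its kinds differed by KEGG entry. Of calmodulin-like and CBL calcium sensors 18 of 55 tested members rose and 4 fell (median 0.31), and CML30 (CqNL-6_038049) had 14.3, 9.12 and 6.03 CPM in NaCl-treated leaves, against 0.071, 0.32 and 0.322 CPM in untreated leaves (log2 fold change 5.30 ± 0.48, adjusted p = 5.54e-05). Of the calcium-dependent and CBL-interacting kinases 10 of 34 tested members rose and 6 fell (median 0.15), or 29.4% higher and 17.6% lower, against 23.9% and 22.8% of all tested genes. In the KEGG entry led by the title CBL-interacting kinase 32-like, 15 of 23 tested genes rose and 2 fell (median 0.996). In the entry led by calcium-dependent kinase 1, 8 of 30 rose and 5 fell (median 0.17). Both entries were picked after their values were seen. CIPK23 copies CqNL-6_029794 and CqNL-6_033529, whose Arabidopsis counterpart regulates potassium and nitrate uptake, had 57.6, 65.6 and 61.6 and 56.9, 65.3 and 71.4 CPM with NaCl, against 19.8, 22.7 and 25.2 and 14.9, 20.1 and 25.1 CPM without. These 2 copies were alike in level and in change. Of the phospholipases and phosphoinositide enzymes 22 of 44 tested members rose and 5 fell (median 0.64). Phospholipase D releases phosphatidic acid, a lipid messenger of water deficit; CqNL-6_034968 had 35.8, 28.5 and 30.6 CPM with NaCl, against 7.59, 7.11 and 7.27 CPM without (log2 fold change 2.11 ± 0.14, adjusted p = 1.26e-05). In the MAP kinase list 3 of 8 tested members rose and 0 fell, including a YODA-like kinase (CqNL-6_031076, log2 fold change 1.08 ± 0.12).

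The cytosolic ribosomal proteins, the list with the most tested members, fell almost as a whole and had the lowest median of all lists with at least 10 tested members. Of 128 tested members 121 fell and 4 rose (116 fell at least 2-fold), with a median log2 fold change of -1.63; with total-count scaling 119 fell and the median was -1.39. Cells make these proteins of the 40S and 60S subunits in step with growth. L14 (CqNL-6_028475, chromosome 7, 59495941 to 59498217) had 23.1, 26.6 and 28 CPM in NaCl-treated leaves, against 133, 108 and 101 CPM in untreated leaves (log2 fold change -2.14 ± 0.14, adjusted p = 1.26e-05). S29 (CqNL-6_006032) had 2.4, 3.2 and 3.21 CPM with NaCl, against 26.3, 22.2 and 17.6 CPM without (log2 fold change -2.90 ± 0.20, adjusted p = 1.52e-05). S20-2 (CqNL-6_026262), the member with the highest FPKM (258 with NaCl and 738 without), had 67.3, 65.5 and 85.2 CPM with NaCl, against 284.3, 233 and 224 CPM without. All 3 were lower in every NaCl library by more than 2-fold. The exceptions were pairs with 2 titles: the L7-2-like loci CqNL-6_036505 and CqNL-6_019896 and the L18a-like loci CqNL-6_035248 and CqNL-6_019268, with log2 fold changes of 0.92, 0.99, 1.17 and 1.39. Their levels were low, at most 13.9 CPM in an NaCl library.

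**Figure D3:**
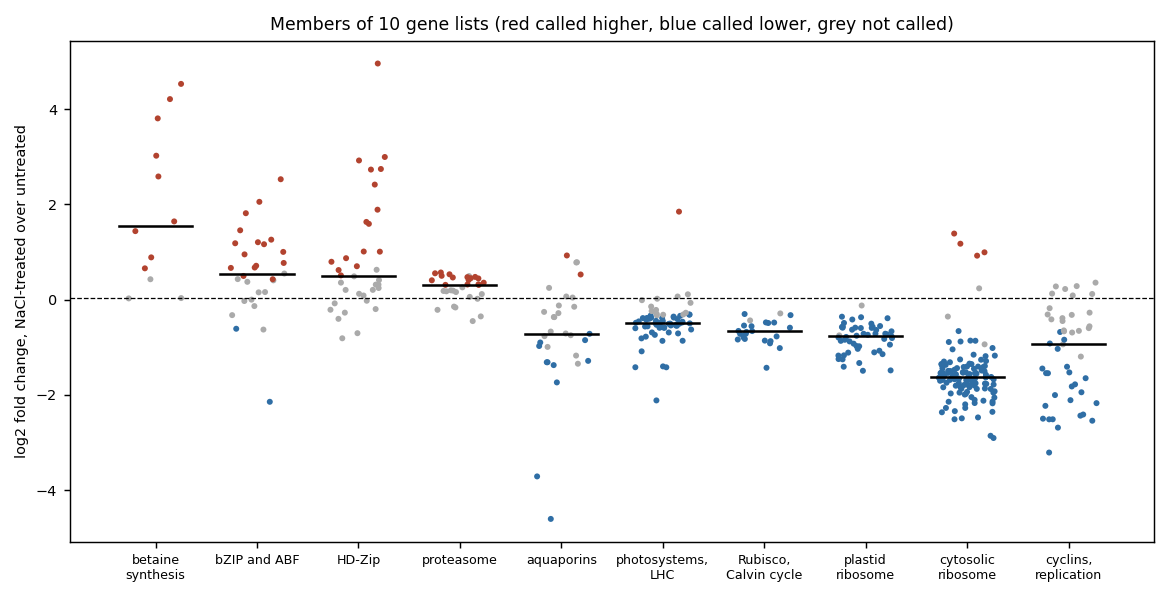
Log2 fold change, NaCl-treated minus untreated leaves, of every tested member of selected gene lists, each point a gene (red called higher, blue called lower, grey not called), with a black line at the list's median and a dashed line at the median of all tested genes (0.04). The cytosolic ribosomal proteins gather around -1.63 and the plastid ribosomal proteins around -0.76, while glycine betaine synthesis has a median of 1.54.

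Plastid ribosomal proteins shared the direction at a smaller size: of 50 tested members 48 fell and 0 rose (median -0.76). L21 (CqNL-6_001497) had 81.9, 86 and 115 CPM in NaCl-treated leaves, against 291, 241 and 262 CPM in untreated leaves (log2 fold change -1.49 ± 0.15, adjusted p = 6.84e-05), and L12 (CqNL-6_052875) had 153, 159.5 and 198 CPM with NaCl, against 476, 433 and 442 CPM without (log2 fold change -1.41 ± 0.14, adjusted p = 4.77e-05). NaCl replicate 3 was the least reduced of the treated libraries in both. Chaperones divided by family. All chaperonin loci but 1 fell (18 of 19 tested, 0 higher, median -1.16), and these barrel-shaped chaperones fold Rubisco and other plastid and mitochondrial proteins. Chaperonin 60 (CqNL-6_016301) had 140.5, 219.9 and 314 CPM with NaCl, against 1351, 919.9 and 983 CPM without (log2 fold change -2.27 ± 0.31, adjusted p = 0.000934). The co-chaperonin CqNL-6_019117 had 118, 157 and 179 CPM with NaCl, against 492, 388 and 423 CPM without (log2 fold change -1.52 ± 0.17, adjusted p = 9.62e-05). Of HSP70 proteins 7 of 19 rose and 2 fell, of HSP90 and HSP83 proteins 2 of 11 rose and 5 fell, and of small heat shock proteins 6 of 27 rose and 4 fell. Over all heat shock proteins and chaperones 16 of 83 tested members rose and 31 fell, with a median of -0.20 that turned to 0.05 with total-count scaling. Genes of protein removal moved the other way: of the proteasome subunits 16 of 31 tested members rose and 0 fell and of the autophagy proteins 6 of 17 tested members rose and 0 fell, with medians of 0.31 and 0.35. The proteasome ATPase subunit 7 (CqNL-6_013699) had 83.4, 91.2 and 79.4 CPM with NaCl, against 59.8, 57.4 and 55.8 CPM without, a small change with no overlap (log2 fold change 0.55 ± 0.11). ATG8 (CqNL-6_014900), which coats the forming autophagosome, had 19.4, 17.5 and 15.7 CPM with NaCl, against 8.44, 8.65 and 10.5 CPM without (log2 fold change 0.93 ± 0.15).

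Photosynthesis genes were lower in each of 3 lists, with medians of less than a 2-fold change. Of photosystem and light-harvesting proteins 53 of 68 tested members fell and 1 rose (median -0.48), of Rubisco small subunit and Calvin cycle enzymes 22 of 24 fell and 0 rose (median -0.67), and of ferredoxin, plastocyanin, cytochrome and plastid ATP synthase proteins 13 of 17 fell and 0 rose (median -0.64). The light-harvesting protein Lhcb1.2 (CqNL-6_029603), with 10032 FPKM with NaCl and 13035 FPKM without the most abundant member, had 7286, 6985 and 7976 CPM in NaCl-treated leaves, against 10634, 11436 and 12265 CPM in untreated leaves (log2 fold change -0.63 ± 0.11, adjusted p = 0.00145). The Rubisco small subunit CqNL-6_000831 had 8024, 7617 and 7934 CPM with NaCl, against 14101, 14956 and 15415 CPM without (log2 fold change -0.92 ± 0.11, adjusted p = 0.000116), and another copy, CqNL-6_009849 (chromosome 18, 5504927 to 5505753), had 996, 1015 and 1299 CPM with NaCl, against 3200.3, 2948 and 2764 CPM without (log2 fold change -1.43 ± 0.14, adjusted p = 4.94e-05). The NaCl and untreated ranges were apart in all 3 genes. PsbP of the oxygen-evolving complex (CqNL-6_027538) had 53.5, 46.6 and 70.5 CPM with NaCl, against 139, 153 and 163 CPM without, plastocyanin (CqNL-6_039497), the copper protein that carries electrons to photosystem I, had 886, 852 and 1066 CPM with NaCl, against 1781, 1776 and 1824 CPM without, and ferredoxin-1 (CqNL-6_010809) had 1324, 863 and 1204 CPM with NaCl, against 2563, 1912 and 2378 CPM without. NaCl replicate 3 was least reduced in PsbP and plastocyanin. The single riser, PsbY (CqNL-6_003946), a small photosystem II protein, had 8.75, 7.25 and 7.997 CPM with NaCl, against 1.42, 2.75 and 2.44 CPM without. With total-count scaling 20 members of the photosystem list fell and 2 rose, with a median of -0.23.

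Photorespiration and chlorophyll synthesis followed. Of the photorespiration enzymes 2 of 26 tested members rose and 14 fell (median -0.34, or 5 lower and 3 higher with total-count scaling), among them serine-glyoxylate aminotransferase (CqNL-6_034307), a peroxisomal enzyme, with 486, 312 and 680.5 CPM in NaCl-treated leaves, against 1396, 1461 and 1617 CPM in untreated leaves (log2 fold change -1.60 ± 0.26, adjusted p = 0.0015). In chlorophyll synthesis 1 of 22 tested members rose and 13 fell (median -0.53). Subunit I of magnesium chelatase (CqNL-6_043506), which inserts the metal into the ring, had 293, 308 and 421 CPM with NaCl, against 928, 853 and 929 CPM without (log2 fold change -1.41 ± 0.15, adjusted p = 8.94e-05). Uroporphyrinogen decarboxylase (CqNL-6_039775), an earlier step, had 156, 149.9 and 192 CPM with NaCl, against 419, 378 and 375 CPM without. In both genes NaCl replicate 3 was again the least reduced. Chlorophyll breakdown had 3 higher and 3 lower of 13 tested members; pheophorbide a oxygenase (CqNL-6_047606), which opens the ring in senescing leaves, had 44.8, 45.5 and 48.6 CPM with NaCl, against 17.3, 20.9 and 21.6 CPM without (log2 fold change 1.21 ± 0.13, adjusted p = 7.11e-05).

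In carbon and nitrogen metabolism members of the same path went opposite ways, as did all tested genes (23.9% higher, 22.8% lower). Starch breakdown (28.3% higher, 26.1% lower) lay near these shares, and sugar transporters (18.6% higher, 16.3% lower) lay below both. In starch synthesis 12 of 30 tested members rose and 7 fell (median 0.20): granule-bound starch synthase (CqNL-6_021547) had 90.8, 121 and 85.9 CPM in NaCl-treated leaves, against 25.8, 26.2 and 22.1 CPM in untreated leaves (log2 fold change 2.01 ± 0.16, adjusted p = 2.16e-05), and the ADP-glucose pyrophosphorylase locus CqNL-6_020292 had 139, 165 and 107 CPM with NaCl, against 16.3, 24.9 and 24.4 CPM without (log2 fold change 2.65 ± 0.21, adjusted p = 3.29e-05) while the locus CqNL-6_030195 had 51.9, 57.4 and 78.6 CPM with NaCl, against 149, 137 and 161 CPM without (log2 fold change -1.25 ± 0.16, adjusted p = 0.000221). In starch breakdown 13 of 46 tested members rose and 12 fell, with a median of -0.08 that turned to 0.17 with total-count scaling. An alpha-amylase (CqNL-6_026780) had 20.02, 31.1 and 28.9 CPM with NaCl, against 3.34, 3.2 and 4.63 CPM without, and isoamylase (CqNL-6_010266), a debranching enzyme, had 143, 161 and 125 CPM with NaCl, against 45.4, 44.4 and 46.6 CPM without. Both were more than 2-fold above the untreated libraries in each NaCl library. In sucrose synthesis and cleavage 6 of 17 tested members rose and 2 fell (median 0.08). Sucrose synthase CqNL-6_008236 had 43.9, 50.5 and 34.5 CPM with NaCl, against 6.88, 9.29 and 9.58 CPM without (log2 fold change 2.32 ± 0.18, adjusted p = 2.27e-05), and sucrose-phosphate synthase CqNL-6_046943 had 36.3, 39.8 and 38.9 CPM with NaCl, against 11.8, 11.3 and 14.4 CPM without (log2 fold change 1.62 ± 0.14, adjusted p = 2.77e-05). Of the sugar transporters 8 of 43 tested members rose and 7 fell, with a median of -0.10 that turned to 0.15 with total-count scaling; the SWEET exporter CqNL-6_043246 had 5.34, 6.16 and 5.57 CPM with NaCl, against 18.3, 24 and 18.1 CPM without.

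Nitrate and ammonium assimilation had 7 of 18 tested members higher and 8 lower with TMM, against 8 higher and 6 lower with total-count scaling. Cytosolic glutamine synthetase (CqNL-6_033117), which fixes ammonium in the cytosol, had 81.8, 115 and 82.1 CPM in NaCl-treated leaves, against 29.2, 25.6 and 26.2 CPM in untreated leaves (log2 fold change 1.78 ± 0.16, adjusted p = 3.21e-05). NADH-dependent glutamate synthase (CqNL-6_025953), its partner, had 67.4, 94.6 and 56.6 CPM with NaCl, against 11.1, 6.85 and 7.52 CPM without (log2 fold change 3.11 ± 0.25, adjusted p = 4.83e-05), and glutamate dehydrogenase (CqNL-6_011148) had 47.4, 62.8 and 50.3 CPM with NaCl, against 19.8, 19.4 and 20.3 CPM without. These 3 enzymes of ammonium handling were each highest in NaCl replicate 2. Ferredoxin-nitrite reductase (CqNL-6_007120), in the plastid, had 191, 238 and 210.2 CPM with NaCl, against 484, 337 and 348 CPM without (log2 fold change -0.87 ± 0.16, adjusted p = 0.00165). Sulfate assimilation and glutathione synthesis fell: 2 of 20 tested members rose and 13 fell (median -0.74). Adenylylsulfate reductase (CqNL-6_023094), its control point, had 72.8, 75.6 and 105.1 CPM with NaCl, against 349, 254 and 260.5 CPM without (log2 fold change -1.77 ± 0.18, adjusted p = 7.37e-05), and sulfite reductase (CqNL-6_034255) had 76.1, 65.6 and 116 CPM with NaCl, against 325, 241 and 239.7 CPM without (log2 fold change -1.65 ± 0.22, adjusted p = 0.000511). In branched-chain amino acid breakdown, an alternative source of respiratory electrons, 12 of 27 tested members rose and 2 fell (median 0.27), with hydroxyisobutyryl-CoA hydrolase (CqNL-6_031709) at 53.2, 50.1 and 44.6 CPM with NaCl, against 16.6, 16.1 and 17.7 CPM without.

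Genes of cell division and of wall loosening were lower. Of the cyclins and replication factors 25 of 47 tested members fell and 0 rose (median -0.94), and of the core histones 38 of 53 fell and 1 rose (median -1.0). The replication helicase subunits MCM7 (CqNL-6_014796) and MCM2 (CqNL-6_056108) had 1.74, 3.08 and 2.49 and 1.32, 2.18 and 2.82 CPM with NaCl, against 15.5, 15.8 and 10.2 and 16.5, 14.5 and 9.58 CPM without. Cyclin A (CqNL-6_054166) had 0.42, 0.242 and 0.655 CPM in NaCl-treated leaves, against 4.83, 3.27 and 4.18 CPM in untreated leaves (log2 fold change -3.21 ± 0.38, adjusted p = 0.000129). Histone H3.2 (CqNL-6_017249) had 6.17, 5.86 and 6.36 CPM with NaCl, against 29.3, 28 and 28.6 CPM without (log2 fold change -2.22 ± 0.13, adjusted p = 6.54e-06), with almost the same level in the 3 replicates of each group. Linker histones of the H1 type differed from the core histones, with 4 of 5 tested loci higher and 0 lower; CqNL-6_011816 had 8.21, 10.9 and 5.37 CPM with NaCl, against 1.28, 1.99 and 1.35 CPM without (log2 fold change 2.40 ± 0.31, adjusted p = 0.000208). The 35 tested marker loci of dividing tissue, a list that overlaps these, had 20 lower and 4 higher, and their summed level was 1526 to 1964 FPKM in NaCl-treated leaves and 1758 to 1932 FPKM in untreated leaves.

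Expansins and xyloglucan endotransglucosylases, which loosen and remodel the wall as cells enlarge, had 5 of 37 tested members higher and 16 lower (median -0.80). Expansin-A1 (CqNL-6_024132, chromosome 7, 71413557 to 71415173) had 30.1, 32 and 38 CPM in NaCl-treated leaves, against 108, 117 and 106 CPM in untreated leaves (log2 fold change -1.73 ± 0.13, adjusted p = 1.83e-05), although over the 6 tested expansins 2 fell, 0 rose and the median of -0.24 turned to 0.01 with total-count scaling. Of the xyloglucan enzymes 14 of 31 fell and 5 rose, XTH32 above being the steepest riser. Of the pectin-modifying enzymes 9 of 52 tested members rose and 19 fell (median -0.41), among them pectate lyase 5 (CqNL-6_044557) with 2.22, 1.51 and 2.49 CPM with NaCl, against 12.4, 14.8 and 15.8 CPM without (log2 fold change -2.79 ± 0.22, adjusted p = 2.17e-05). The cellulose synthases went the other way, with 10 of 19 tested members higher and 2 lower (median 0.66).

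Redox genes divided by class. Glutathione S-transferases, which conjugate toxic electrophiles, rose (19 of 37 higher, 3 lower, median 0.54), whereas superoxide dismutases, catalases and ascorbate peroxidases had 3 of 39 higher and 14 lower (median -0.25), a balance that turned to 9 higher and 8 lower with total-count scaling. The transferase CqNL-6_002368 had 19.8, 30.9 and 24.3 CPM in NaCl-treated leaves, against 3.34, 4.48 and 3.79 CPM in untreated leaves (log2 fold change 2.68 ± 0.20, adjusted p = 1.93e-05). Ascorbate peroxidase CqNL-6_032030 had 21.5, 18.6 and 16.8 CPM with NaCl, against 5.46, 7.56 and 10.03 CPM without, and an iron or manganese superoxide dismutase (CqNL-6_003203) had 16.1, 13 and 16.3 CPM with NaCl, against 41.9, 35.3 and 28.3 CPM without. These 2 peroxide- and superoxide-removing enzymes therefore moved in opposite directions. Of 9 tested alternative oxidases, which pass electrons to oxygen in mitochondria without pumping protons, 5 rose and 1 fell. The oxidase CqNL-6_021139 had 34.2, 23.4 and 15 CPM with NaCl, against 0.426, 0.512 and 0.965 CPM without (log2 fold change 5.23 ± 0.42, adjusted p = 6.16e-05), and CqNL-6_018390 had 25.5, 22.9 and 16 CPM with NaCl, against 0.922, 2.43 and 1.54 CPM without (log2 fold change 3.70 ± 0.31, adjusted p = 4.5e-05). Both stayed low in untreated leaves and were highest in NaCl replicate 1. RBOHE (CqNL-6_030430), a superoxide-producing oxidase of the cell surface, had 15, 15.3 and 10.8 CPM with NaCl, against 2.7, 4.16 and 3.02 CPM without; of 7 tested respiratory burst oxidases 2 rose and 1 fell. A glutaredoxin, CqNL-6_009304, had 17, 16.1 and 9.9 CPM with NaCl, against 0.284, 0.833 and 0.707 CPM without (log2 fold change 4.52 ± 0.34, adjusted p = 2.28e-05), while another, CqNL-6_023804, had 0.839, 1.39 and 2.43 CPM with NaCl, against 9.93, 10.3 and 9.003 CPM without (log2 fold change -2.66 ± 0.31, adjusted p = 0.000127).

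In betalain synthesis, the pigment path that replaces anthocyanins in the amaranth family, 4 of 6 tested members rose and 0 fell (median 1.96); the CYP76AD1-like gene CqNL-6_001481, a tyrosine-oxidising cytochrome P450, had 14.8, 10.8 and 14.6 CPM in NaCl-treated leaves, against 2.2, 3.2 and 2.25 CPM in untreated leaves (log2 fold change 2.39 ± 0.22, adjusted p = 3.94e-05). In phenylpropanoid and flavonoid synthesis 17 of 56 tested members rose and 3 fell (median 0.27). Cinnamoyl-CoA reductase (CqNL-6_032751), on the way to lignin, had 50.4, 44.2 and 43.5 CPM with NaCl, against 11, 13.6 and 12.3 CPM without (log2 fold change 1.90 ± 0.13, adjusted p = 1.5e-05). A flavonol synthase-like gene (CqNL-6_025552) had 11.6, 4.11 and 8.06 CPM with NaCl, against 0.284, 0.577 and 0.579 CPM without, below 1 CPM in all untreated leaves. Of pathogenesis-related proteins, chitinases and glucanases 16 of 39 tested members rose and 6 fell (median 0.69).

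Among clock and light receptor genes 11 of 31 tested members rose and 6 fell (median 0.15). Sampling time within the day was not given in the sources used here beyond the length of the treatment. GIGANTEA (CqNL-6_017398), an evening clock protein, had 104, 92.2 and 89.5 CPM in NaCl-treated leaves, against 44.8, 48 and 53.3 CPM in untreated leaves (log2 fold change 0.96 ± 0.12, adjusted p = 0.000186). A PRR5-type pseudo-response regulator (CqNL-6_025103) had 67.8, 81.6 and 63.7 CPM with NaCl, against 37.8, 31.6 and 36.5 CPM without, and LHY (CqNL-6_025109), a morning factor, had 14.7, 15.8 and 17.1 CPM with NaCl, against 6.03, 8.97 and 8.87 CPM without. These 3 genes were among the 4 risers with the smallest p, while 14 members of the list were not called. Phytochrome A (CqNL-6_009127), the far-red light receptor, had 10.9, 10.2 and 14 CPM with NaCl, against 34.7, 36.9 and 33.2 CPM without (log2 fold change -1.58 ± 0.15, adjusted p = 4.17e-05).

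The KEGG column grouped 2635 tested genes into 160 entries with at least 10 tested members, and several of the most one-sided entries were outside the lists above. Of the NF-Y subunit A factors, DNA-binding subunits of a CCAAT-box complex, 9 of 11 rose and 0 fell (median 1.36); CqNL-6_015139 had 18.1, 21 and 14.6 CPM in NaCl-treated leaves, against 6.17, 6.28 and 5.08 CPM in untreated leaves (log2 fold change 1.61 ± 0.18, adjusted p = 0.000101). Of the ARI8-type ubiquitin ligases 9 of 11 rose and 0 fell (median 0.78), of the cyclic nucleotide-gated channels, calcium-conducting pores, 15 of 22 rose and 1 fell (median 0.78), and of the calcium-transporting ATPases, which pump calcium back, 14 of 22 rose and 2 fell (median 0.78). The channel CqNL-6_024863 had 55, 53.2 and 68.6 CPM with NaCl, against 13.6, 19.7 and 14.1 CPM without (log2 fold change 1.90 ± 0.17, adjusted p = 3.72e-05), and the pump CqNL-6_003821 had 67.6, 86.3 and 78 CPM with NaCl, against 23.6, 30.3 and 28.6 CPM without (log2 fold change 1.49 ± 0.14, adjusted p = 4.54e-05). Calcium entry and removal proteins were thus both more often higher than lower. Of the phospholipid-transporting ATPases 8 of 11 rose and 0 fell (median 0.84), and of the phospholipases D 14 of 23 rose and 0 fell (median 0.93).

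The largest median among the named entries, 3.48, belonged to the BCS1-type ATPases of the AAA family, named after a mitochondrial chaperone of yeast, with 12 of 18 higher and 1 lower. The neighbouring loci CqNL-6_027169 and CqNL-6_027170 on chromosome 18 had 10.6, 17.3 and 10.3 and 47.3, 40.7 and 29.3 CPM with NaCl, against 0.781, 0.961 and 1.09 and 2.7, 4.996 and 4.31 CPM without, and another member, CqNL-6_020286, had 19.7, 8.52 and 18.2 CPM with NaCl, against 0.355, 0.769 and 0.514 CPM without. Several members were thus near 1 CPM or below in untreated leaves. Of the chitinases 11 of 16 rose and 2 fell (median 1.65). The heat shock protein 70 entry had 7 of 12 genes higher and 1 lower (median 1.87). In the other direction stood the 20 kDa chaperonins (10 of 10 lower, median -1.0), the chaperonin 60 proteins (9 of 10 lower, 0 higher, median -1.25), the type A response regulators (10 of 11 lower, 0 higher, median -2.09), the histones H4 (11 of 13 lower, 0 higher, median -1.17) and the DnaJ homologs (11 of 14 lower, 0 higher, median -0.86). Of the ferredoxins 9 of 10 fell and 1 rose (median -0.97), which became 5 and 1 with total-count scaling. These entries and members were picked after their values were seen.

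The families that the study set out to follow stood within this picture. CrRLK1L receptor kinases such as FERONIA sense the cell wall and bind RALF peptides. Of 24 CqCrRLK1L loci in the table, 17 were tested, of which 5 rose and 1 fell, and 2 had no read. Over all tested genes 23.9% were higher and 22.8% lower, so the count of risers was near the general share. CqCrRLK1L7 (CqNL-6_000746, chromosome 10, 73364251 to 73367862) had 63.8, 61.2 and 69.3 CPM in NaCl-treated leaves, against 7.66, 5.96 and 5.02 CPM in untreated leaves (log2 fold change 3.38 ± 0.17, adjusted p = 2.43e-06). Its neighbour CqCrRLK1L5 (CqNL-6_000744) had 7.85, 7.13 and 9.31 CPM with NaCl, against 1.92, 2.69 and 1.93 CPM without, and the locus of CqCrRLK1L17 and CqCrRLK1L18 (CqNL-6_002275) had 22.8, 21.8 and 27.9 CPM with NaCl, against 13.4, 15.4 and 17.2 CPM without. CqCrRLK1L9 (CqNL-6_009746) rose at a very low level, with 2.76, 1.09 and 2.43 CPM with NaCl, against 0.142, 0.064 and 0 CPM without. The rise of CqCrRLK1L8 (adjusted p = 0.0453) was lost in 9 of 14 alternatives, among them leaving out NaCl replicate 2 or 3 or any 1 untreated replicate. CqCrRLK1L21 fell (log2 fold change -2.17 ± 0.45) with at most 1.35 CPM in any library.

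The FERONIA copies were not called: CqCrRLK1L15 (CqNL-6_049660) had 37, 64.9 and 58.4 CPM with NaCl, against 50.7, 58.3 and 55.2 CPM without (adjusted p = 0.893), and CqCrRLK1L24 (CqNL-6_044443) had 36.6, 89.3 and 69.3 CPM with NaCl, against 71.2, 69.4 and 78.7 CPM without (adjusted p = 0.669). NaCl replicate 1 was the lowest of the treated libraries in both, as it was in the copies of HERK1, THE1 and CVY1. Of 16 CqRALF loci 10 were tested, of which 3 fell and 0 rose. The count of falls was near the share of all tested genes (22.8% lower, with 23.9% higher). The locus of CqRALF3 and CqRALF4 (CqNL-6_028401) had 18.5, 20.5 and 17.9 CPM with NaCl, against 29.1, 39.5 and 37.6 CPM without (log2 fold change -0.90 ± 0.14, adjusted p = 0.000728). The falls of CqRALF12 (log2 fold change -0.62 ± 0.16) and CqRALF8 (log2 fold change -0.58 ± 0.21) were lost with total-count scaling, that of CqRALF12 also without untreated replicate 2, and that of CqRALF8 also without NaCl replicate 1 or 2 or any 1 untreated replicate.

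The 3 NaCl replicates differed from each other more than the 3 untreated ones did. The biological coefficient of variation, the square root of edgeR's common dispersion estimated in each group alone, was 22.3% among NaCl-treated leaves and 13.0% among untreated leaves. It was 22.5%, 19.6% and 24.1% without NaCl replicate 1, 2 and 3, and 9.58%, 14.9% and 13.9% without untreated replicate 1, 2 and 3, so the ranges did not meet whichever library was left out. Between pairs of NaCl libraries, 3.52 to 5.14% of tested genes lay more than 2-fold apart, against 1.02 to 1.86% between pairs of untreated libraries. Of 10686 genes with a mean of at least 16 CPM, 611 (5.72%) spanned 2-fold or more among the NaCl replicates and 103 (0.964%) among the untreated ones. The replicate farthest from the middle one was NaCl replicate 2 in 295 of the 611 genes, replicate 1 in 180 and replicate 3 in 136. Depth was similar, as given above, with the NaCl libraries slightly shallower, and its part in the spread was not tested.

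**Figure D4:**
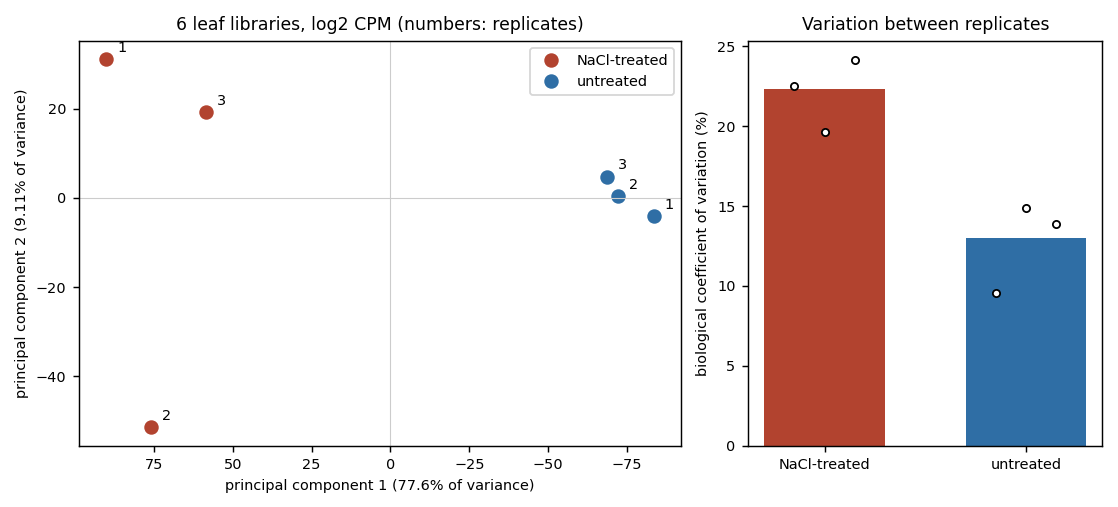
Left, the first and second principal components of the log2 CPM of the 6 leaf libraries (numbers are replicates, and the first axis runs from high to low); right, the biological coefficient of variation in percent among NaCl-treated (red) and untreated (blue) leaves, with all 3 replicates (bars) and with each left out in turn (points, from left to right without replicate 1, 2 and 3). NaCl replicate 2 lies at -51.4 on the second component, and the NaCl points of the right panel, 19.6% to 24.1%, all lie above the untreated ones, 9.58% to 14.9%.

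The genes that varied most among NaCl replicates fell into opposite patterns. In the first, replicate 1 was high: the NP24-like protein CqNL-6_004400 had 263, 40.7 and 85.3 CPM in NaCl replicates 1, 2 and 3, against 24.4, 30.1 and 27.7 CPM in untreated leaves, and the PR-4-like protein CqNL-6_036156 had 182, 19.5 and 57.8 CPM with NaCl, against 4.75, 7.11 and 4.5 CPM without. Caffeoyl-CoA O-methyltransferase (CqNL-6_013222), a lignin enzyme, had 98.7, 16.1 and 20.4 CPM with NaCl, against 4.47, 5.96 and 8.04 CPM without. Of these only the PR-4-like gene and the methyltransferase passed the test, and both calls were lost without NaCl replicate 3 and without each untreated replicate. Over the whole list of pathogenesis-related proteins, chitinases and glucanases, the median shift from the untreated mean was 0.73, 0.42 and 0.68 on the log2 scale in NaCl replicates 1, 2 and 3, so replicate 1 did not stand apart there. In the second pattern replicate 1 was low: GEG2 (CqNL-6_005568), a GASA-like protein, had 17.6, 219 and 110.2 CPM with NaCl, against 188, 185 and 155 CPM without, and EXORDIUM (CqNL-6_002338), a protein tied to cell expansion in Arabidopsis, had 12.6, 51 and 79.2 CPM with NaCl, against 18.2, 25.3 and 34 CPM without. Neither of them was called. The ASR1-like gene CqNL-6_002008 had 43.8, 6.59 and 16.3 CPM with NaCl, against 26.5, 35.4 and 42.7 CPM without, so that replicate 1 lay above and replicates 2 and 3 below the untreated range.

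**Figure D5:**
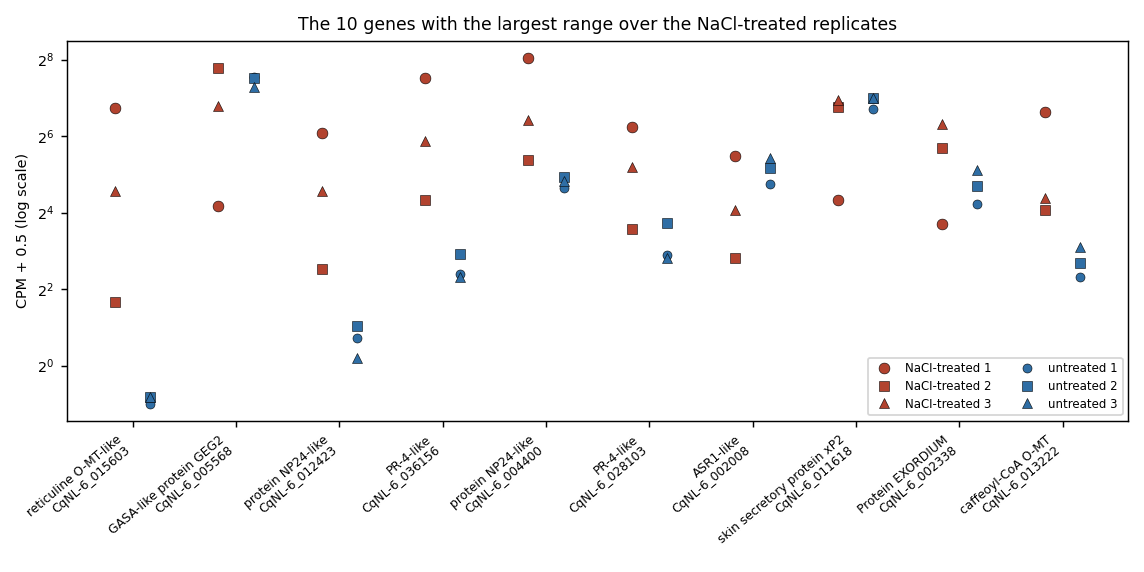
CPM plus 0.5 on a logarithmic axis of the 10 titled genes with the largest range over the NaCl replicates, in each NaCl-treated (red, left) and untreated (blue, right) leaf library, with a circle, square and triangle for replicates 1, 2 and 3. They were taken among genes with a mean of at least 16 CPM and an untreated range under 2-fold. Both ranges were measured in CPM plus 0.5, which narrows the range of genes with low untreated levels. NaCl replicate 1 is highest in 7 of the genes and lowest in 3.

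By list, the median shift of a replicate from the untreated mean differed most, among lists with at least 10 tested members, for the expansins and xyloglucan endotransglucosylases, with -1.07, -0.11 and -0.83 on the log2 scale in NaCl replicates 1, 2 and 3. The raffinose family had 0.78, 0.88 and 0.08, glycine betaine synthesis 1.13, 1.83 and 1.28, and the cytosolic ribosomal proteins -1.79, -1.69 and -1.37. The order of the replicates was thus not the same in each list, though replicate 3 was nearest to the untreated level in 2 of these 4. Over all genes, when a replicate was left out and the 2-fold calls were made from the other libraries, its median shift over the called genes was 1.45 for higher and -1.41 for lower genes in replicate 1, 1.30 and -1.36 in replicate 2, and 1.14 and -1.03 in replicate 3. Between 98.4% and 99.4% of these genes moved in the called direction in the replicate left out. The shift was taken from the same untreated libraries that entered the calls, so this is not an independent check of them. The first principal component of the log2 CPM, 77.6% of the variance, separated the groups, with scores of 90.04, 75.9 and 58.3 for NaCl replicates 1, 2 and 3 and of -83.5, -72.1 and -68.7 for the untreated ones. The second, 9.11%, set NaCl replicate 2 (-51.4) apart from replicates 1 (31.1) and 3 (19.2), with the untreated libraries between -4.1 and 4.8.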

How the data were processed

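Poly(A) RNA of NaCl-treated and untreated quinoa leaves was sequenced by the authors as 150-base read pairs (Illumina NovaSeq), aligned to the NL-6 assembly with HISAT2 2.1.0 and counted per gene with HTSeq. How strand and reads matching several genes were handled is not stated in the labels or methods read here, so near-identical homeologous copies of this allotetraploid could share or split reads. The deposited table holds raw counts per gene, which were tested as deposited, and FPKM values. The authors scaled FPKM by gene length and mapped reads. It was not tested here and served to show levels of genes and summed levels of marker loci. It follows total counts, not TMM. No row of the table lacks a gene, and no column of another sample was used.

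Counts of the 6 leaf libraries were filtered by expression (edgeR filterByExpr), scaled with TMM and tested with edgeR 4.0.16 in R 4.3.3 (quasi-likelihood F test, robust), NaCl-treated minus untreated, with Benjamini-Hochberg adjustment over 29201 tested genes; a gene was called at an adjusted p under 0.05. Errors of log2 fold changes are standard errors. The test was checked on simulated counts with few changed genes, balanced in direction, and the same dispersion in both groups. That check does not bear on the choice of scaling or on the unequal spread of the groups. Levels of single libraries are CPM on the TMM scale. Tables and figures were made with Python 3.11.15, pandas 2.3.3 and matplotlib 3.10.9.

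The 76 gene lists were built from words of the gene titles and from KEGG orthologs; the comparison, lists and subgroups were chosen with earlier results of these data known. Named genes were taken by rule: by log2 fold change, the top 12 titled genes in each direction (mean of at least 16 CPM, groups not overlapping), up to 4 members of each list in each direction by smallest p and the member with the highest FPKM, the CqCrRLK1L and CqRALF genes, and the 10 titled genes with the largest range over NaCl replicates. Alternatives were other scalings (RLE, upper quartile, total counts), DESeq2 1.42.0, no read filter, at least 10 CPM in 3 libraries, all 15 libraries in the fit, a replicate block, a 2-fold threshold and each replicate left out. Sequences were not used here.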

Additional observations from a re-analysis of the deposited data

How the results depend on the processing

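All 6992 higher and 6653 lower genes kept their direction in each of the 14 refits that tested them, and 4611 and 4139 of them kept their call in all of these. With total-count scaling 4426 genes were lower, 4658 were at least 2-fold higher and 1990 at least 2-fold lower, the lists with more members lower than higher numbered 16 instead of 26, and the KEGG entries of that kind 34 instead of 58. Of 152 list counts (members higher or lower in a list), 45 moved by over 1.5 times with this scaling, and the medians of 13 of 76 lists changed sign; calcium sensors, for example, had 29 higher members instead of 18 and thioredoxins 22 higher and 14 lower instead of 12 and 20. A 2-fold threshold left 6069 genes, 2995 higher and 3074 lower. With at least 10 CPM in 3 libraries, 1399 and 1683 genes passed it, since fewer genes (15176) were tested. Without 1 replicate, 5388 to 6734 genes were higher and 5356 to 6795 lower. The biological coefficient of variation in NaCl-treated leaves was 18.6% with at least 10 CPM, and 19.6% to 24.1% without 1 replicate; in untreated leaves it was 9.58% to 14.9% without 1 replicate. Same-numbered replicates did not deviate together (correlations of -0.117, 0.019 and -0.007). With 3 replicates a group, such values cannot show whether the numbers pair samples, and the main test used no pairing. With a replicate block 12467 genes were called (6359 higher and 6108 lower), and of the named genes only CqCrRLK1L8 lost its call. Both FERONIA copies, which were not called, changed sign: CqCrRLK1L15 (CqNL-6_049660) had log2 fold changes of 0.212 with total-count scaling and of -0.200 to 0.163 without 1 replicate, and CqCrRLK1L24 (CqNL-6_044443) of 0.0811 with total-count scaling and of -0.466 to 0.109 without 1 replicate. Of 168 named genes that were called, 15 lost the call in at least 1 alternative. The small subunit CqNL-6_000831 and LHY (CqNL-6_025109) lost theirs with all 15 libraries in the fit. The NP24-like gene CqNL-6_004400 was called without NaCl replicate 1 or 2, where its log2 fold change was 1.20 and 2.66. With 3 replicates a group and low counts in many genes, a miss of the threshold does not show that a gene did not change.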

Other observations

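The remaining lists had no common direction. Of the auxin-responsive AUX/IAA, SAUR and GH3 genes 8 of 55 tested members rose and 9 fell (median 0.01), a balance that turned to 12 higher and 6 lower with total-count scaling and to 9 higher and 8 lower without untreated replicate 2. Of the MYB factors 14 of 59 tested members rose and 15 fell (median 0.15; 25 higher and 8 lower with total-count scaling). Of the class III peroxidases of the cell wall 9 of 48 tested members rose and 8 fell (11 higher and 12 lower without NaCl replicate 2), of the thioredoxins, glutaredoxins and peroxiredoxins 12 of 79 tested members rose and 20 fell, of the tubulins and kinesins 5 of 48 tested members rose and 11 fell (14 higher and 7 lower with total-count scaling), and of the polyamine enzymes 6 of 24 tested members rose and 8 fell (8 higher and 6 lower with total-count scaling).

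Genes of the leaf surface and of membrane lipids were also mixed. In cuticular wax and cutin synthesis 10 of 45 tested members rose and 7 fell (11 higher and 13 lower without NaCl replicate 2), and of the lipid-transfer proteins, which carry lipids to the surface, 5 of 14 tested members rose and 2 fell (median 0.55). The transfer protein CqNL-6_021000 had 769.8, 1065 and 556 CPM in NaCl-treated leaves, against 329, 297 and 268 CPM in untreated leaves (log2 fold change 1.42 ± 0.22, adjusted p = 0.000892), and CqNL-6_044527 had 14.6, 33.2 and 10.4 CPM with NaCl, against 0.568, 0.0641 and 0.193 CPM without (log2 fold change 6.15 ± 0.76, adjusted p = 0.00115). The NaCl and untreated libraries did not overlap in either, and NaCl replicate 2 was highest in both. In fatty acid desaturation and elongation 2 of 16 tested members rose and 6 fell (median -0.38), with the plastid desaturase FAD4 (CqNL-6_022781) at 4.32, 2.48 and 10.5 CPM with NaCl, against 46.9, 35.4 and 32.9 CPM without (log2 fold change -2.75 ± 0.51, adjusted p = 0.00689). In proline breakdown 2 of 4 tested members rose and 1 fell, the 2 being copies of pyrroline-5-carboxylate dehydrogenase, CqNL-6_022127 with 23.1, 28.6 and 31.1 CPM with NaCl, against 15.4, 13.6 and 17.6 CPM without and CqNL-6_005612 with 18.9, 29.9 and 19.1 CPM with NaCl, against 12.6, 10.1 and 12.6 CPM without. Of the metallothioneins and ferritins 2 of 6 tested members fell and 0 rose. Ferritin-3 (CqNL-6_039834), an iron store, had 42.9, 33.7 and 56.4 CPM with NaCl, against 483, 97.2 and 147 CPM without, so that untreated replicate 1 alone was far above the others; its call (adjusted p = 0.0413) was lost with total-count scaling and without any 1 NaCl replicate. Of the U-box ubiquitin ligases 3 of 11 tested members rose and 1 fell. The single tested ZAT gene (CqNL-6_053602), a ZAT10-like zinc finger repressor, had 7.07, 0.665 and 1.57 CPM with NaCl, against 0.071, 0 and 0.193 CPM without (adjusted p = 0.017), a call that was lost without untreated replicate 1 or 2.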
